A study of Mus musculus with 16 samples.

Results

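The genes described here are the cytochrome P450 enzymes of families 1 to 3 in the mouse together with Por, which encodes the reductase that supplies them with electrons. They were chosen by name: protein-coding genes whose symbol begins with Cyp1, Cyp2 or Cyp3 followed by a subfamily letter and a number, plus Por. That gave 61 genes of the 55359 gene models in the count tables, with 3 in the Cyp1 family, 48 in Cyp2, 9 in Cyp3 and Por. RNA came from whole ovary and whole kidney of female wild-type CBAF1 mice aged 21 days, in 4 groups of 4 libraries. PT-2385, a small molecule that blocks the transcription factor HIF-2α, was given by intraperitoneal injection at 7.5 mg/kg every 12 h over 4 days, and control mice received the vehicle, 5% DMSO in saline, on the same schedule. All mice, treated and control alike, also received 5 IU PMSG for 48 h and then 5 IU hCG, the hormones that bring on follicle growth and ovulation, and both organs were taken 13 h after hCG. The labels do not say which libraries came from the same mouse or that each replicate was a separate mouse, so p-values measure the spread between these libraries.

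Cytochrome P450 enzymes of these families sit in the endoplasmic reticulum and insert an oxygen atom into lipophilic molecules such as drugs, plant compounds, steroids and fatty acids. The microsomal P450 enzymes receive electrons from NADPH through the reductase that Por encodes. The liver is the best known site of these enzymes, while the kidney holds members of the Cyp2j and Cyp2c subfamilies that convert arachidonic acid to epoxides and hydroxylated products, and Cyp1b1 is typical of steroid-producing tissue outside the liver.

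Levels are given as CPM, counts scaled to a library of 1e6 read pairs, after TMM scaling within each organ. Levels of different genes were ranked per kilobase of exon. Shares of the members' read pairs are not scaled by exon length, so they favour long genes. Assigned read pairs ran from 12689770 (kidney PT-2385 replicate 2) to 43295974 (kidney PT-2385 replicate 3) per library, and genes of about 1 CPM rest on few pairs. RNA was isolated with a column kit from ovary and with Trizol from kidney, so levels were not tested between organs. The labelled organs showed their defining genes: all 10 proximal tubule markers passed the low-count filter in kidney and 2 in ovary, while all 6 granulosa cell, 4 theca cell and 4 oocyte markers passed in ovary and 3, 2 and 1 in kidney. The members took up 0.222% to 0.231% of assigned pairs in kidney libraries of the vehicle group and 0.193% to 0.206% in those of the PT-2385 group. In ovary the ranges were 0.0702% to 0.0905% and 0.0631% to 0.0727%. A low-count filter kept 26 of the 61 members in kidney and 10 in ovary, and all 10 were among the 26. The other 35 members passed in neither organ, and 6 of them (Cyp2c66, Cyp3a16, Cyp3a41a, Cyp3a41b, Cyp3a44 and Cyp3a59) had no count in any of the 16 libraries. Which members passed depends on their level, so counts over the members tested describe the expressed members only.

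Some members are near copies of each other, which limits what counts per gene can tell. Cyp2a4 and Cyp2a5, both on chromosome 7 (GRCm39 chr7:26006594-26014513 and chr7:26534730-26542953, plus strand), encode a steroid 15α-hydroxylase and a coumarin 7-hydroxylase. Their coding sequences of 1482 bases each were 98.45% identical in the reference, with 23 differing positions and a longest identical run of 216 bases. The stretch of 80 coding bases with the most differences (bases 590 to 669 counted from the start codon) is shown because reads over such positions are what tells the pair apart; capitals mark the 5 differing bases.
Cyp2a4: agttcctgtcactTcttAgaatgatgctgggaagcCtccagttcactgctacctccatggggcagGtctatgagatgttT
Cyp2a5: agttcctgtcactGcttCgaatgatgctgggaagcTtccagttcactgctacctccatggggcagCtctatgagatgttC
Of all 75-base windows in the transcripts, 22.1% in Cyp2a4 and 22.3% in Cyp2a5 also occurred in another gene. Other near-identical pairs were Cyp3a41a and Cyp3a41b (99.87%), Cyp2c67 and Cyp2c69 (97.69%), Cyp3a25 and Cyp3a59 (97.48%), Cyp2c67 and Cyp2c68 (97.15%) and Cyp2a12 and Cyp2a22 (96.95%), and values of these genes are uncertain between the copies. In Cyp3a41a and Cyp3a41b, 95.27% and 90.9% of windows also occurred in another gene. The lack of any count for these copies therefore does not show that they were silent. None of the windows of Cyp2j5, Cyp2j11, Cyp2j6, Cyp1b1 or Por occurred in another gene.

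In kidney the Cyp2j, Cyp2d and Cyp2e subfamilies were the most abundant. Cyp2j5, an arachidonic acid epoxygenase of the proximal tubule (chr4:96517010-96552391, minus strand), ranked first at 357 CPM per kilobase over the 8 libraries and took 39.4% ± 0.702 (SD, n = 4) of the members' read pairs with vehicle. Cyp2d26 followed at 203 CPM per kilobase, Cyp2e1, the enzyme that oxidises ethanol and small solvents, at 144, Por at 98.8 and Cyp2j11 at 65.9. A gap then separated these 5 genes from Cyp2d22, the mouse gene most often set beside human CYP2D6, at 19.2 CPM per kilobase. Cyp2j6 stood at 17.8 and Cyp2c23, a renal arachidonic acid epoxygenase, at 17.7 CPM per kilobase, which did not differ beyond their spread. The members at the bottom of the tested range were Cyp2d34 at 0.242 and Cyp2j8 at 0.275 CPM per kilobase.

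**Figure D1:**
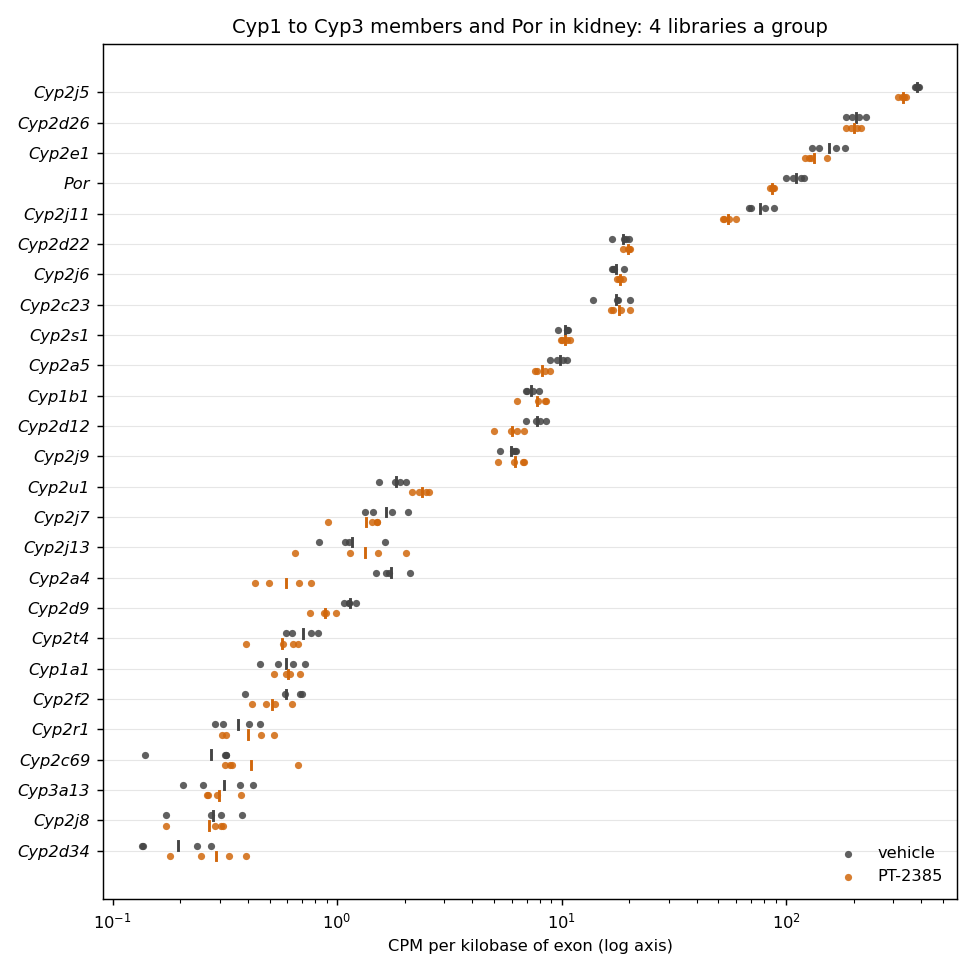
Level of each of the 26 members tested in kidney, in CPM per kilobase of exon on a log axis. Points are libraries (4 with vehicle, 4 with PT-2385) and short bars are group means; levels span from 0.242 (Cyp2d34) to 357 (Cyp2j5), and the Cyp2a4, Cyp2j5, Cyp2j11, Cyp2d12, Cyp2d9 and Por points with PT-2385 lie below all vehicle points while those of Cyp2u1 lie above.

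The expressed members were clustered unevenly on the chromosomes. The 8 Cyp2j genes lie within 621 kilobases of chromosome 4 (chr4:95930897-96552391), and 7 of them were tested in kidney. Of the 8 Cyp2d genes within 424 kilobases of chromosome 15, 5 were tested. Of the 14 Cyp2c genes in the main cluster on chromosome 19, 1 (Cyp2c69) was tested, and of the 8 Cyp3a genes that lie together on chromosome 5, 0 were. Cyp3a13, a steroid- and drug-oxidising enzyme whose gene lies apart from that cluster, was the only Cyp3a gene tested, at 0.305 CPM per kilobase.

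With PT-2385, 5 of the 26 members tested in kidney fell and 1 rose (edgeR quasi-likelihood test, Benjamini-Hochberg adjusted over all genes tested). Over all 17763 genes tested in kidney the same test called 5.53%, with 3.7% lower and 1.83% higher, so the members were called more often than the whole table, a description of these libraries that was not tested. The members that fell were Cyp2a4, Cyp2j11, Cyp2j5, Cyp2d12 and Por, and Cyp2u1 rose. The median log2 fold change of the 26 members was −0.03, against 0.01 over all genes tested. The 2 groups did not overlap for 7 of the 26 members, 6 with PT-2385 lower and 1 higher, while over all genes tested 7.89% lay lower and 5.37% higher without overlap. In whole-organ RNA, fewer cells of a type and less RNA per cell cannot be told apart. Among 10 markers of the proximal tubule, where many of these enzymes are made, 2 fell (Cubn by 0.44 and Acsm2 by 0.23 on the log2 scale, adjusted p = 0.0288 and 0.0211, edgeR). All 10 were well detected, 9 of the 10 estimates were negative with a median of −0.17, and their summed level was 22131 to 24749 CPM with vehicle and 20495 to 22676 CPM with PT-2385. At an unadjusted p under 0.05 in edgeR there were 5 of the 10, against 23.1% of all genes tested. Without overlap between the groups, 4 of the 10 lay lower with PT-2385 and 0 higher. The largest estimate was that of Slc22a7, at −0.95, just outside the threshold (adjusted p = 0.0504, edgeR). The part of the tubule markers in the results below was not tested. Both marker calls were lost without kidney PT-2385 replicate 3 (adjusted p = 0.0907 for Acsm2 and 0.0835 for Cubn) or replicate 4 (0.0732 and 0.0952), and that of Cubn also without vehicle replicate 2 (0.101) or PT-2385 replicate 1 (0.0697).

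**Figure D2:**
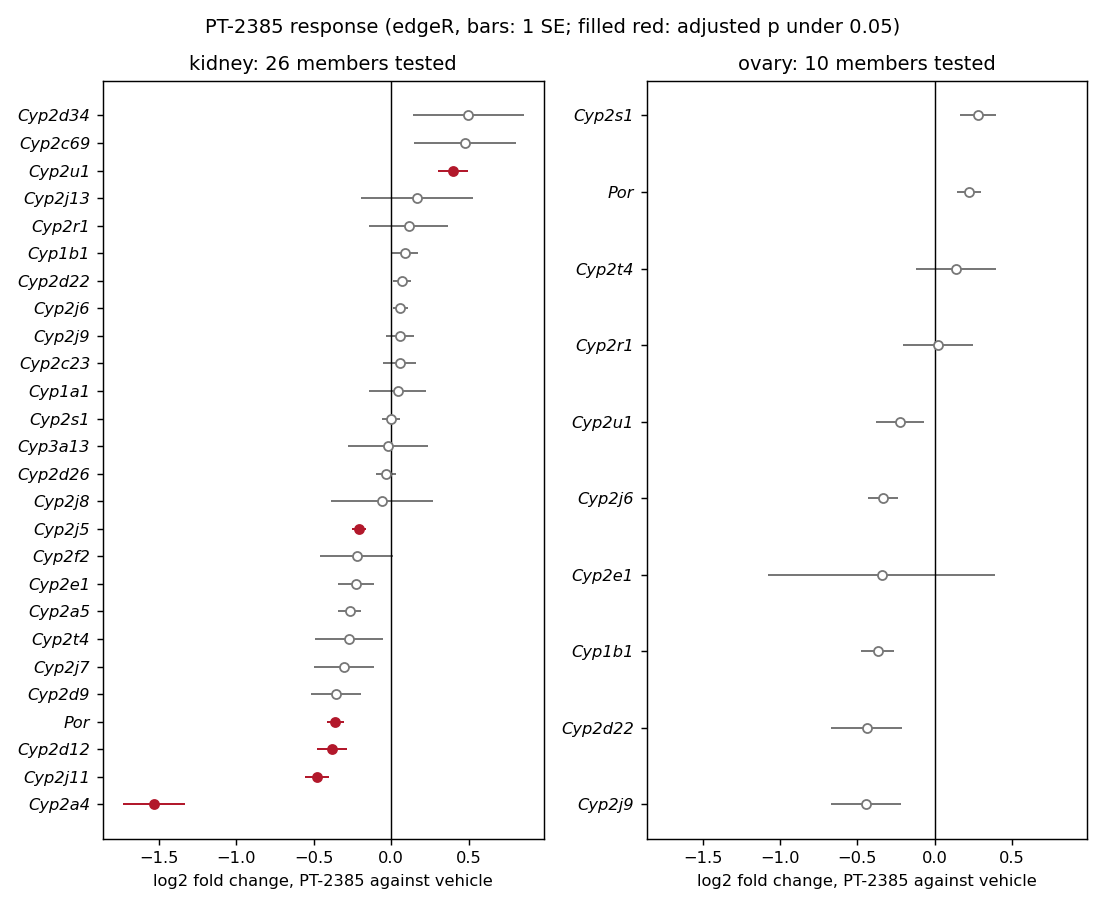
Log2 fold change of PT-2385 against vehicle for the members tested in kidney (26, left) and ovary (10, right). Bars are 1 standard error, derived from the edgeR fold change and test statistic. Filled red points passed an adjusted p of 0.05: Cyp2a4, Cyp2j11, Cyp2d12, Por and Cyp2j5 lower and Cyp2u1 higher in kidney, and 0 in ovary.

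Cyp2a4 had the largest change of any member tested in kidney. Its level was 2.97, 3.69, 2.58 and 2.86 CPM in vehicle replicates 1 to 4 and 0.865, 1.18, 1.33 and 0.748 CPM in PT-2385 replicates 1 to 4. Every PT-2385 library lay below every vehicle library, and the nearest values of the groups were 2.58 and 1.33 CPM. The mean fell from 3.02 ± 0.471 to 1.03 ± 0.270 CPM (SD, n = 4 each), which edgeR estimated as −1.53 on the log2 scale (SE 0.20; adjusted p = 0.00175). These levels rested on 59 to 99 pairs per vehicle library and 15 to 58 per PT-2385 library. The call held in all alternatives that gave an adjusted p, with log2 fold changes between −1.76 and −1.40; DESeq2 gave an unadjusted p of 1.2e-10 for Cyp2a4 and no adjusted p.

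The near copy Cyp2a5 was more abundant and moved less. Its level was 17.8, 19.2, 21.4 and 20.5 CPM in vehicle libraries and 15.3, 17.9, 15.7 and 17.1 CPM in PT-2385 libraries, and the groups overlapped between 17.8 and 17.9 CPM. Its log2 fold change was −0.27 (SE 0.08) with an adjusted p of 0.0502 (edgeR), just outside the threshold. It passed in 8 of 17 alternatives, among them DESeq2 (adjusted p = 0.0253) and the fit without vehicle replicate 1 (0.0224) or without PT-2385 replicate 2 (0.0409).

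Within a library, Cyp2a4 counts as a share of Cyp2a5 counts do not depend on depth or scaling. The share was 16.7%, 19.2%, 12.1% and 13.97% in vehicle replicates 1 to 4 and 5.67%, 6.58%, 8.49% and 4.39% in PT-2385 replicates 1 to 4. The groups did not overlap, and the log2 ratio with PT-2385 minus that with vehicle was −1.32 (exact two-sided permutation test over 70 groupings, p = 0.0286, the smallest that 4 against 4 libraries can give). In these counts Cyp2a4 changed more than Cyp2a5. The ratio uses the same Cyp2a4 counts as the call above, so its p is not separate evidence of the fall. The recorded counting command holds no setting for reads that match several places. Whether reads that match both genes entered either count was not tested.

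The 250 bases upstream of the RefSeq starts of the pair are shown because they differ so little beside unequal responses. In GRCm38.p6 they lie at chr7:26306942-26307191 and chr7:26835089-26835338, both on the plus strand. Capitals mark the 4 differing bases among 249 aligned.
Cyp2a4 upstream: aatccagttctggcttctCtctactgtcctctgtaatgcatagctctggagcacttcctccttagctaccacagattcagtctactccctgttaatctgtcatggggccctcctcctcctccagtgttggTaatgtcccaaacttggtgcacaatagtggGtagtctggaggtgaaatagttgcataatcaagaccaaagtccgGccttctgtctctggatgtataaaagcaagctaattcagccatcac
Cyp2a5 upstream: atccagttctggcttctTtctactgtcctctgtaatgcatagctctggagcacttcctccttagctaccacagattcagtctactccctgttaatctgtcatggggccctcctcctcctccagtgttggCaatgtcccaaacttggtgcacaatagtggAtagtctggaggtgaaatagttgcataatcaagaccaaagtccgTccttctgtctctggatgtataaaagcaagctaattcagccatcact

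The epoxygenases of the Cyp2j cluster were led by Cyp2j5 and Cyp2j11, and both fell. Cyp2j5 was at 910.5, 893, 914 and 878 CPM in vehicle replicates 1 to 4 and at 790, 803, 775 and 740 CPM in PT-2385 replicates 1 to 4. The groups were far apart relative to their spread, although the change was small. The mean moved from 899 ± 16.9 to 777 ± 27.2 CPM, which edgeR estimated as −0.21 on the log2 scale (SE 0.05; adjusted p = 0.0156). The call was lost without vehicle replicate 2 (adjusted p = 0.0518), without PT-2385 replicate 3 (0.0668) or 4 (0.0636) and in a fit of all 16 libraries that shared 1 spread between organs (0.821).

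Cyp2j11 (chr4:96182745-96236899, minus strand) was at 169, 154, 134 and 131 CPM in vehicle libraries and 106, 114, 102 and 100.2 CPM in PT-2385 libraries. All 4 PT-2385 libraries were lower than the lowest vehicle library. Its log2 fold change in edgeR was −0.48 (SE 0.08; adjusted p = 0.0049), and the call was lost only in the fit of all 16 libraries (0.055).

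The other 5 Cyp2j genes tested in kidney did not pass. Cyp2j6 was at 63.0 ± 3.55 CPM with vehicle and 65.6 ± 1.56 with PT-2385, and Cyp2j9 at 12.1 ± 0.86 and 12.6 ± 1.45 CPM. Cyp2j7, Cyp2j8 and Cyp2j13 lay between 0.406 and 5.85 CPM in group means, with log2 fold changes from −0.31 to 0.17. Cyp2j12 was not tested. The 2 most abundant genes of the cluster thus fell while its neighbours Cyp2j6 and Cyp2j9 had estimates of 0.06 each; this difference between genes was not tested.

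Of the 5 Cyp2d genes tested in kidney, Cyp2d12 fell (chr15:82439290-82443635, plus strand). It was at 11.4, 12.7, 14.1 and 13.3 CPM in vehicle libraries and 8.30, 11.2, 10.5 and 9.80 CPM in PT-2385 libraries. The highest PT-2385 library, replicate 2, lay just below the lowest vehicle library. Its log2 fold change in edgeR was −0.38 (SE 0.10; adjusted p = 0.0325). This call was lost without vehicle replicate 2 (adjusted p = 0.0795), 3 (0.056) or 4 (0.056), without PT-2385 replicate 1 (0.0886), 3 (0.0767) or 4 (0.093), and in the fit of all 16 libraries (0.125). Its coding sequence was 92.13% identical to that of Cyp2d9, and 2.37% of its 75-base windows also occurred there. Cyp2d9, a testosterone 16α-hydroxylase known from male liver, was itself at 1.95 ± 0.100 CPM in vehicle libraries and 1.5 ± 0.164 CPM in PT-2385 libraries and did not pass (log2 fold change −0.35, adjusted p = 0.204, edgeR). Cyp2d26, the second most abundant member, was at 349 ± 30.5 and 341 ± 22.6 CPM, with a log2 fold change of −0.03 (SE 0.06). Cyp2d22 was at 52.0 ± 3.89 and 54.5 ± 1.68 CPM.

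Cyp2u1, an enzyme that hydroxylates long-chain fatty acids near the end of the chain (chr3:131082090-131096873, minus strand), was the only member that rose. It was at 8.34, 7.11, 9.36 and 8.77 CPM in vehicle libraries and 10.7, 9.89, 11.5 and 11.8 CPM in PT-2385 libraries. Every PT-2385 library lay above every vehicle library, with 9.36 and 9.89 CPM as the nearest values. The log2 fold change was 0.40 (SE 0.10, adjusted p = 0.0266, edgeR). The call was lost without vehicle replicate 2 (adjusted p = 0.0919), PT-2385 replicate 3 (0.102) or 4 (0.0931), and in the fit of all 16 libraries (0.0908). Exons of 4930534D22Rik on the opposite strand cover 11.83% of its exon bases, and no strand setting is recorded for the counting. How pairs over these shared bases were counted was not tested.

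Without vehicle replicate 2, without PT-2385 replicate 3 and without PT-2385 replicate 4, 3 members were called in kidney instead of 6, and in each case these were Cyp2a4, Cyp2j11 and Por. The file name of PT-2385 replicate 3 carries another code than the rest, and the labels do not say what that code marks. PT-2385 replicate 3 was also the deepest library. Cyp2a4, Cyp2j11 and Por were called in all 8 fits with 1 kidney library left out.

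The remaining kidney members of higher level had estimates near 0 or wide errors. Cyp2e1 was at 259, 239, 337 and 307 CPM in vehicle libraries and 281, 232, 238 and 225 CPM in PT-2385 libraries, so the groups overlapped (log2 fold change −0.23, SE 0.11, adjusted p = 0.287, edgeR). Cyp2c23 was at 37.6 ± 5.72 and 38.9 ± 3.65 CPM, and Cyp2s1, a P450 of epithelia, at 32.8 ± 1.49 and 32.7 ± 1.48 CPM. Cyp1a1 and Cyp1b1 are the classical targets of the aryl hydrocarbon receptor, which like HIF-2α pairs with the protein Arnt. Cyp1a1 was at 1.64 ± 0.321 CPM in vehicle libraries and 1.68 ± 0.183 CPM in PT-2385 libraries, and Cyp1b1 at 38.1 ± 2.36 and 40.6 ± 5.43 CPM. Neither passed (adjusted p = 0.922 and 0.566, edgeR), and Cyp1a2 was not tested, with 3 pairs in all 8 kidney libraries.

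Por, on chromosome 5 (chr5:135717890-135764180, plus strand), encodes the reductase on which all microsomal members depend. In kidney it was at 327, 318, 274 and 293 CPM in vehicle replicates 1 to 4 and at 240.2, 235, 238 and 230.5 CPM in PT-2385 replicates 1 to 4. The PT-2385 libraries were tightly grouped below the lowest vehicle library. The mean moved from 303 ± 24.2 to 236 ± 4.23 CPM, which edgeR estimated as −0.36 on the log2 scale (SE 0.05; adjusted p = 0.00404), and all 17 alternatives called it. In ovary the order was turned around. Por was at 176, 166, 193 and 199 CPM in vehicle libraries and at 211, 199, 229 and 217 CPM in PT-2385 libraries, and the groups did not overlap, with vehicle replicate 4 at 198.9 and PT-2385 replicate 2 at 199.3 CPM. The estimate in ovary was 0.22 (SE 0.08), which did not pass (adjusted p = 0.253, edgeR; unadjusted p = 0.012).

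**Figure D3:**
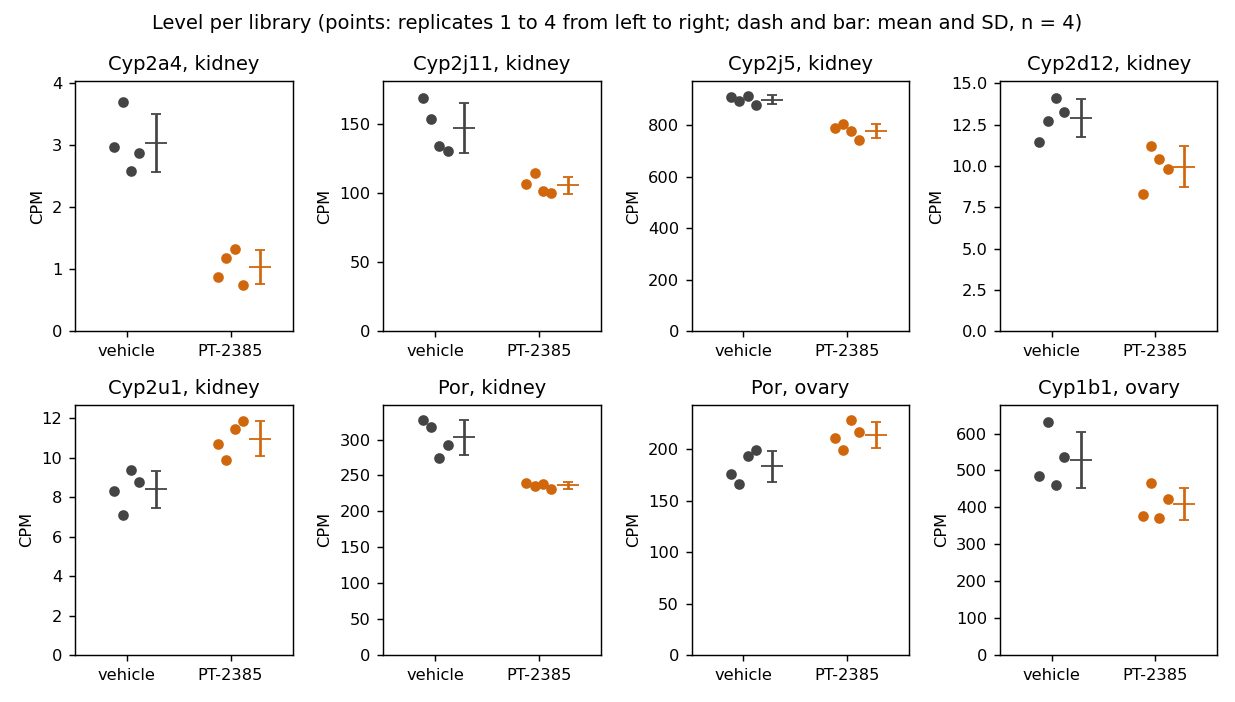
CPM in each library for the 6 members called in kidney and for Por and Cyp1b1 in ovary, each on its own linear axis that starts at 0. Points are replicates, and dashes with bars are mean and SD of 4 libraries; Por lies lower with PT-2385 in kidney (303 and 236 CPM) and higher in ovary (183 and 214 CPM), where it did not pass the test.

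The response of Por differed between the organs. In a fit of all 16 libraries the log2 response of ovary less that of kidney was 0.60 (SE 0.10, adjusted p = 0.0251, edgeR), and Por was the only one of the 10 members tested in both organs to pass. Over all 19977 genes in that fit, 0.19% passed. The call was lost without ovary vehicle replicate 1 (adjusted p = 0.0528), ovary PT-2385 replicate 3 (0.114), kidney vehicle replicate 2 (0.0719) and kidney PT-2385 replicates 1 (0.0505), 3 (0.0731) and 4 (0.0823). Without each of the 16 libraries in turn and under every other alternative the estimate stayed between 0.53 and 0.65. For the next members by p, the differences were −0.38 for Cyp2j6, −0.61 for Cyp2u1 and −0.44 for Cyp1b1 (adjusted p = 0.13, 0.157 and 0.234, edgeR), none past the threshold. DESeq2 called 3 members, adding Cyp2j6 (adjusted p = 0.0278) and Cyp2u1 (0.0428). Of the 10 members tested in both organs, 8 had estimates of opposite sign in the 2 organs, but single members other than Por were not shown to differ.

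The upstream window of Por is shown because it carries 3 copies of GCGTG, the core of the element that the aryl hydrocarbon receptor and Arnt bind, counted on both strands (capitals; CACGC on the strand shown is GCGTG on the other). It lies at chr5:135688895-135689144 in GRCm38.p6, plus strand.
Por upstream: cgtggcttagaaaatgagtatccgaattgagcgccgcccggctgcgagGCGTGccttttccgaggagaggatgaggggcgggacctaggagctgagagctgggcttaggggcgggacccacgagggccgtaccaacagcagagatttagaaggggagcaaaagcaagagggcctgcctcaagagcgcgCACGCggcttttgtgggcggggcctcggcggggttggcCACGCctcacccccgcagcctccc
RefSeq windows were found for 53 members. GCGTG stood in the 250 upstream bases of 9 of them (16.98%: Cyp1a1, Cyp1b1, Cyp2b10, Cyp2c68, Cyp2j9, Cyp2j12, Cyp2j13, Cyp2w1 and Por), against 30.9% of 27025 genes. ACGTG stood in 2 (3.77%: Cyp2e1 and Cyp2j6), against 18.5% of all genes. The core of the hypoxia response element can read ACGTG or GCGTG, so a GCGTG match is not particular to the aryl hydrocarbon receptor. Both motifs were read on both strands; they differ in their first letter, so no match counted for both, although matches on opposite strands can overlap. Windows were found for 4 of the 6 members called in kidney (Cyp2a4, Cyp2j5, Cyp2j11 and Por). Of these 4 windows 0 held ACGTG, and GCGTG stood in that of Por only. A match is only a run of letters, and its absence from 250 bases says nothing of binding elsewhere.

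In ovary, 2 genes made up most of the signal. Cyp1b1, which oxidises oestradiol and aromatic hydrocarbons (chr17:80014323-80022490, minus strand), ranked first at 90.0 CPM per kilobase, and Por second at 72.8. Cyp1b1 held 67.4% ± 3.24 (SD, n = 4) of the members' read pairs with vehicle and Por 23.7% ± 3.45. Cyp2s1 followed at 8.25 CPM per kilobase, Cyp2d22 at 6.25, Cyp2j6 at 3.70 and Cyp2j9 at 1.29. Cyp2u1, Cyp2t4, Cyp2r1, the vitamin D 25-hydroxylase, and Cyp2e1 lay between 0.326 and 0.651 CPM per kilobase, close together for their spread. In kidney, by comparison, Cyp1b1 was at 7.56 CPM per kilobase, rank 11 among the members.

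**Figure D4:**
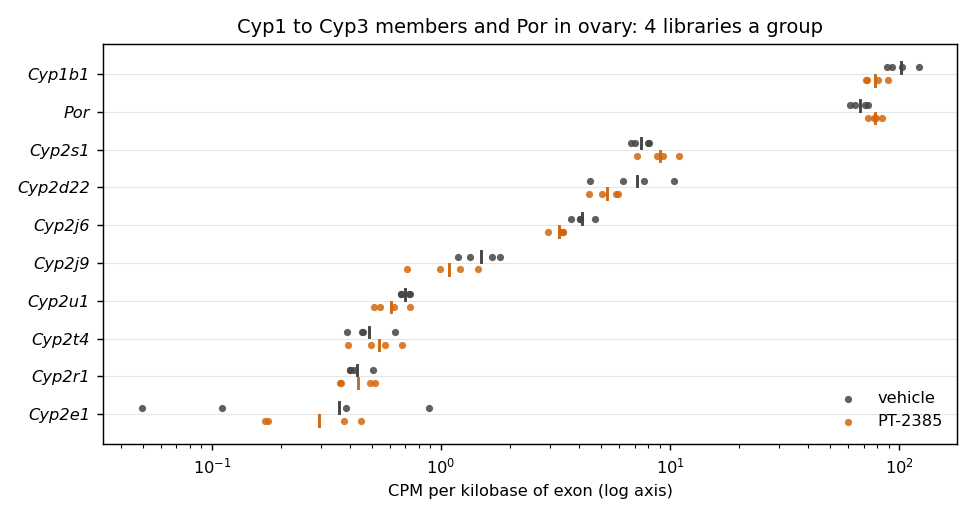
Level of the 10 members tested in ovary, in CPM per kilobase of exon on a log axis, with points for libraries and short bars for group means. Cyp1b1 (90.0) and Por (72.8) stand an order of magnitude above Cyp2s1 (8.25), and the vehicle points of Cyp2e1 spread widest.

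With PT-2385, 0 of the 10 members tested in ovary passed in edgeR, where 0.0497% of all 18125 genes tested did. At an unadjusted p under 0.05 there were 4 members (Cyp2j6, Cyp1b1, Por and Cyp2s1), against 13.2% of all genes tested. DESeq2 called 1 member, Cyp1b1, and limma-voom 0. The median log2 fold change of the 10 was −0.28, against 0.00 over all genes tested (−0.003 before rounding), with 6 negative and 4 positive estimates. Without overlap between the groups, 1 member lay higher (Por) and 1 lower (Cyp2j6), against 3.18% and 3.77% of all genes tested.

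Cyp1b1 was at 485, 633, 460 and 537 CPM in vehicle replicates 1 to 4 and at 376, 466, 372 and 421 CPM in PT-2385 replicates 1 to 4. Only vehicle replicate 3 and PT-2385 replicate 2 crossed, at 460 and 466 CPM. The means were 528 ± 76.4 and 409 ± 44.0 CPM, which edgeR estimated as −0.37 on the log2 scale (SE 0.11; adjusted p = 0.207). DESeq2 gave −0.37 with an adjusted p of 0.0481, and without vehicle replicate 3, the library whose file carries the number 5, edgeR gave −0.43 (0.0339). In all, 5 of 17 alternatives called Cyp1b1 in ovary, among them edgeR without a filter on low counts (adjusted p = 0.00745). The fit without vehicle replicate 3 is also counted there as the fit without deviating file names. Over the 17 the adjusted p ran from 0.00745 to 0.612.

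Cyp2j6, a fatty acid epoxygenase, was at 14.6, 17.02, 13.3 and 14.6 CPM in vehicle libraries and 12.3, 12.0, 10.5 and 12.3 CPM in PT-2385 libraries. All PT-2385 libraries were lower than all vehicle libraries. Its log2 fold change in edgeR was −0.34 (SE 0.10; adjusted p = 0.207), and it passed without vehicle replicate 3 (0.0366) and in the fit of all 16 libraries (0.0304). Cyp2s1 was at 23.5 ± 2.16 CPM in vehicle libraries and 28.6 ± 4.89 CPM in PT-2385 libraries (log2 fold change 0.28, SE 0.12, adjusted p = 0.338, edgeR). Cyp2d22 and Cyp2j9 had estimates of −0.44 each with overlapping groups. Cyp2u1, which rose in kidney, was at 3.22 ± 0.163 and 2.77 ± 0.455 CPM in ovary (adjusted p = 0.56, edgeR).

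Cyp2e1 in ovary had an estimate that depended on single libraries. It was at 0.712, 1.63, 0.0909 and 0.203 CPM in vehicle replicates 1 to 4 and at 0.827, 0.694, 0.323 and 0.314 CPM with PT-2385. Vehicle replicate 2 was highest, and in that library the fat cell hormone gene Adipoq was also highest, at 4.14 CPM against 0.0303 to 0.916 CPM in the other 7 ovary libraries. Without that library the log2 fold change of Cyp2e1 turned from −0.34 to 0.62, and neither passed (adjusted p = 0.883 and 0.843, edgeR). Adipoq is 1 of 5 adipocyte markers, whose summed level was 10.8 to 39.3 CPM with vehicle and 11.7 to 19.8 CPM with PT-2385. The 4 tested in ovary were Adipoq, Cfd, Plin1 and Retn. Their log2 fold changes were −1.61, −0.76, −0.13 and −0.15, and none passed in edgeR. In vehicle replicate 1, Cyp2e1 stood at 0.280% of its kidney level, and the 10 proximal tubule markers at 0.215% to 0.587% of theirs. Of 4 hepatocyte markers tested in ovary, 3 estimates were positive and 1 negative, with a median of 0.97, and 0 passed in edgeR. The parts of fat, kidney and liver tissue in the Cyp2e1 values were not tested.

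The 51 members that were not tested in ovary were near 0 there, with 1 library apart. Their summed level was 6.31 CPM in vehicle replicate 1 and 1.12 to 2.70 CPM in the other 7 libraries. In vehicle replicate 1, Cyp2j5 had 65 pairs, Cyp2d26 39, Cyp2j11 17 and Cyp2c23 14, while the highest count in any other ovary library was 2, 3, 4 and 4. These are the 4 members of at least 30 CPM in kidney that were not tested in ovary, and in this library they stood at 0.262% to 1.23% of their kidney level. The 10 proximal tubule markers stood at 0.215% to 0.587% of theirs in the same library. Their summed level there was 64.2 CPM, against 4.96 CPM at the lowest and 5.75 CPM at the highest in the PT-2385 libraries. Cyp11b2, the aldosterone synthase of the adrenal gland, was at 33.3 CPM in this library and at 0.0303 to 1.01 CPM in the other 7. It is 1 of 5 adrenal cortex markers, whose summed level was 313 to 391 CPM with vehicle and 312 to 466 CPM with PT-2385. The log2 fold change in ovary was −3.62 for Cyp11b2. For Cyp11b1, Mc2r, Akr1b7 and Cyp21a1 it was 0.42, 0.71, 0.02 and −0.003, and none of the 5 passed in edgeR. The part of adrenal tissue was not tested. Leaving out vehicle replicate 1 changed no call of a member in ovary, where 0 members passed with or without it.

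**Figure D5:**
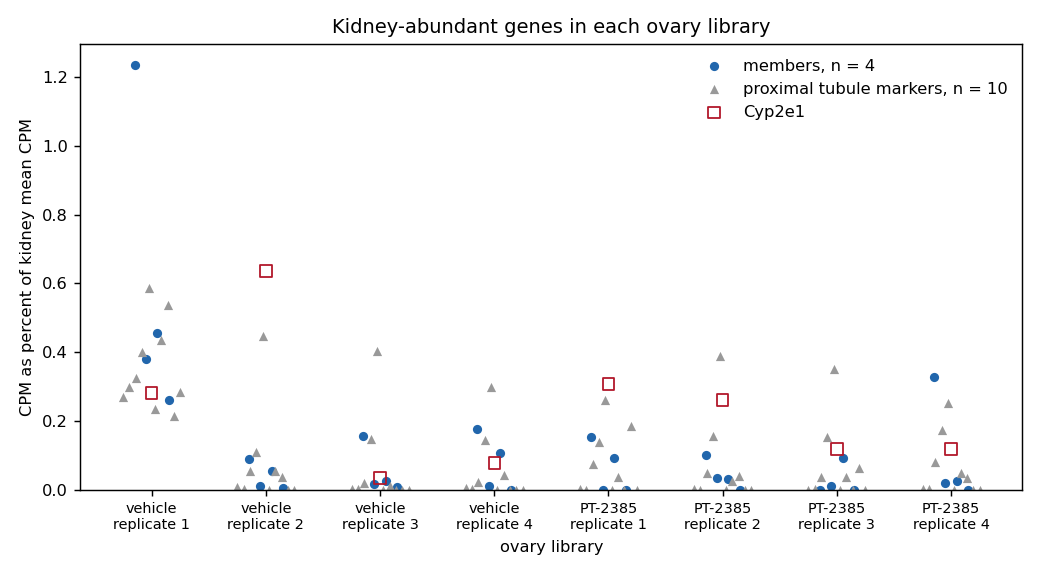
Level in each of the 8 ovary libraries as a percent of the mean level in kidney, for 4 members not tested in ovary (Cyp2c23, Cyp2d26, Cyp2j5 and Cyp2j11), 10 proximal tubule markers and Cyp2e1. In vehicle replicate 1 the members reach 0.262% to 1.23%, while Cyp2e1 is highest in vehicle replicate 2 at 0.636%.

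The 35 members not tested in kidney summed to 0.686 to 1.33 CPM in 7 kidney libraries and to 2.99 CPM in PT-2385 replicate 4. In that library Cyp3a11, the main Cyp3a enzyme of liver, had 23 pairs and the liver enzymes Cyp2c29, Cyp2c50 and Cyp2c70 had 10, 8 and 8, against at most 4, 0, 2 and 0 in any other kidney library. Cyp3a25, Cyp2c54 and Cyp2a12 had 2, 2 and 4 pairs there, against at most 2, 2 and 3. The serum albumin gene Alb was at 16.1 CPM in the same library and at 2.29 to 4.79 CPM in the other 7. The hepatocyte markers Apoa1, Apob, Ahsg, Fgb and Cps1 were also highest there in CPM, Apob only just (8.56 against at most 7.78). Ttr (35.3 against 34.6 to 45.1 CPM) and Serpina1a (29.6 against 14.4 to 30.7 CPM) were within the range of the other 7. The members named here were selected after their values had been seen. Of the 8 hepatocyte markers, 6 were tested in kidney and 1 rose with PT-2385, Serpina1a, at 14.4 to 21.5 CPM with vehicle and 28.02 to 30.7 CPM with PT-2385. The summed level of the 8 markers was 61.2 to 76.8 CPM with vehicle and 76.0 to 97.4 CPM with PT-2385. Their part in the members' results was not tested; without PT-2385 replicate 4 the fall of Cyp2a4, Cyp2j11 and Por still passed.

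Of 3 lists of genes that work beside the members, 1 of 18, 4 of 27 and 2 of 25 genes tested passed in kidney (5.56%, 14.8% and 8%), against 5.53% of all genes tested there. The share of the first list was at this background and that of the third near it. Of 18 genes for other electron donors, haem synthesis and haem breakdown, all 18 were tested in both organs. In kidney 1 fell, Fech, the enzyme that inserts iron to complete haem, from 113 ± 3.95 to 97.4 ± 3.48 CPM (log2 fold change −0.22, adjusted p = 0.015, edgeR). The list's median was −0.01 in kidney and −0.02 in ovary. The call of Fech was lost without vehicle replicate 2 (adjusted p = 0.0671), PT-2385 replicate 3 (0.0744) or 4 (0.0561).

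Of 29 transcription regulators of these enzymes, 27 were tested in kidney and 4 fell, with a list median of −0.09. Ppara, the fatty acid receptor, was at 36.5, 35.3, 28.1 and 31.7 CPM in vehicle libraries and 22.4, 26.3, 21.0 and 22.25 CPM in PT-2385 libraries, without overlap (log2 fold change −0.53, SE 0.08, adjusted p = 0.00467, edgeR). All 17 alternatives called Ppara. Tiparp, an aryl hydrocarbon receptor target that restrains the receptor, fell by 0.28 on the log2 scale (adjusted p = 0.0162, edgeR), a call lost without PT-2385 replicate 3 (0.0744) or 4 (0.0633). Prlr, the prolactin receptor, fell by 0.35 (adjusted p = 0.0473, edgeR). The call of Prlr, a gene named after its value was seen, was lost without vehicle replicate 1 (0.139) or 2 (0.07), PT-2385 replicate 1 (0.105), 2 (0.0554), 3 (0.13) or 4 (0.133), under median-ratio scaling (0.0512) and with limma-voom (0.0518). Ahr itself had an estimate of 0.05 in kidney and 0.00 in ovary, and neither passed (adjusted p = 0.793 and 0.994, edgeR).

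Of 26 epoxide hydrolases, flavin monooxygenases and other oxidases of fatty acids and foreign compounds, 25 were tested in kidney and 2 fell, with a list median of −0.11 and 18 negative estimates. Fmo2, a flavin monooxygenase, went from 408 ± 5.17 to 334 ± 21.1 CPM (log2 fold change −0.29, SE 0.05, adjusted p = 0.00499, edgeR) and was lost only in the fit of all 16 libraries (0.0521). Aldh1a1, a retinaldehyde dehydrogenase, went from 8.91 ± 1.36 to 6.41 ± 0.282 CPM (log2 fold change −0.48, adjusted p = 0.0212, edgeR) and was lost without vehicle replicate 2 (0.0613), PT-2385 replicate 3 (0.0916) or 4 (0.0587). In ovary 0 of 18, 0 of 24 and 0 of 17 genes of the 3 lists passed in edgeR, and 2, 6 and 4 had an unadjusted p under 0.05 (11.1%, 25% and 23.5%), against 13.2% of all genes tested in ovary. The smallest p in the ovary lists belonged to Tiparp, Fech and Aldh3a2, with log2 fold changes of −0.22, −0.24 and −0.24 (adjusted p = 0.172, 0.18 and 0.2, edgeR).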

How the data were processed

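The data were bulk RNA sequencing of whole ovary and kidney in 16 libraries, 4 in each of 4 groups taken from the sample labels. The deposited values are raw counts of read pairs per gene, made by the authors with featureCounts 2.0.6 on exons summed per gene (GENCODE M27 basic annotation), per the file headers. FastQC and STAR were used for quality checks and alignment, with the build GRCm39, per the submitters' processing notes; their versions are not given in the sources used here. The recorded counting command holds no strand setting and no setting for reads that match several places. All columns belonged to samples of the series (0 to others).

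GENCODE M21 gave symbols and gene types for 52083 of the 55359 identifiers. Counts without a symbol made up 0.681% to 3.14% of a library. Coordinates of genes are those of the count files (GRCm39). Upstream windows came from RefSeq (GRCm38.p6), and transcripts from GENCODE M21 gave the coding sequences and 75-base windows.

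Each organ was fitted alone with edgeR 4.0.16 (R 4.3.3, quasi-likelihood test, TMM scaling, filterByExpr at its defaults of count 10 and total 15), with 6 residual degrees of freedom; the interaction used all 16 libraries together. Adjustment was by Benjamini-Hochberg across the genes tested, with p-values called under 0.05. The script was tested on simulated data. CPM are TMM-scaled within each organ, and errors are SD of 4 libraries unless given as SE. Each SE was derived as the absolute log2 fold change divided by the square root of the F statistic of the edgeR test. Assigned pairs ran from 12689770 to 43295974 per library, which limits the precision of genes of a few CPM.

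Named were Por, Cyp2a4, Cyp1a1, Cyp1a2 and Cyp1b1, the 10 members of highest level per kilobase in each organ, each called member, the 4 members of smallest p in each comparison, up to 3 genes of smallest p from each of 3 partner lists in each organ, members with fewer than 3 counts in the other organ, and near-identical copies. A gene that this rule selects is not reported here. Marker genes came from lists of tissues and cell types. The members and lists were chosen with earlier results of these data known. As alternatives, scaling was by median ratio or upper quartile, the test was DESeq2 1.42.0 or limma-voom (limma 3.58.1), and the filter was dropped or set to 1 CPM in at least 4 libraries. Further fits had a replicate block, each library left out, both libraries with deviating file names left out, and a fit of all 16 libraries.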

Additional observations from a re-analysis of the deposited data

Results flagged for a closer look

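In 2 of 50 sets of 4 libraries (a named member in 1 group), a single library stood apart from the other 3; chance gives about 1 in 20. Cyp2r1, the vitamin D 25-hydroxylase, was at 1.07 CPM in ovary vehicle replicate 1 and at 0.848 to 0.881 CPM in the other vehicle libraries. Cyp2s1 was at 30.6 CPM in kidney vehicle replicate 1 and at 33.5 to 33.7 CPM in the other 3. Neither gene passed in that organ.

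The response of Por differed between ovary and kidney by 0.60 on the log2 scale, by the test of the difference itself (adjusted p = 0.0251, edgeR). Por was lower with PT-2385 in kidney and had a positive estimate in ovary that did not pass.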

How the results depend on the processing

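In kidney 6 members and 982 genes were called. Without a filter these were 11 and 1761, the added members being Cyp2a5, Cyp2e1, Cyp2c29, Cyp2c50 and Cyp3a11, without both libraries of deviating file names 3 and 240, and in the fit of all 16 libraries 2 and 286. In ovary 0 members and 9 genes were called. These were 1 and 322 with DESeq2, 1 and 330 without a filter, 2 and 1090 without the deviating library, 1 and 325 in the fit of all 16 libraries, and 0 and 3 with limma-voom. For the difference between organs 1 member and 38 genes were called. These were 3 and 304 with DESeq2, 2 and 378 without the deviating libraries, 1 and 167 without a filter, and 1 and 20 with median-ratio scaling.

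Leaving out each library in turn gave 3 to 7 members and 240 to 1370 genes in kidney, 0 to 2 members and 0 to 1090 genes in ovary, and 0 to 2 members and 0 to 813 genes for the difference. In kidney, gene counts fell to 269 without vehicle replicate 2 and to 531, 240 and 287 without PT-2385 replicates 1, 3 and 4. In ovary they were 1090, 57 and 60 without vehicle replicate 3, vehicle replicate 2 and PT-2385 replicate 4, and 0 or 1 without any other. For the difference they were 813 without ovary vehicle replicate 3, 4, 6, 5 and 0 without ovary vehicle replicate 1 and PT-2385 replicates 1, 2 and 3, and 2 to 20 without kidney vehicle replicates 1 to 4 or PT-2385 replicates 1, 3 and 4. The cause was not tested. The replicate numbers were not taken as pairing, because not every correlation of deviations between libraries of the same number was over 0.1 (−0.172 to 0.236). Between vehicle ovary and vehicle kidney these were 0.0352 to 0.058, against −0.074 to 0.0324 for other numbers, and all 4 ovary libraries correlated best with their own number, a hint from the data and not the design. Between ovary and kidney with PT-2385 they were −0.00967 to 0.0639, against −0.049 to 0.0184, and 2 of 4 correlated best with their own number. Between vehicle and PT-2385 within ovary and within kidney it was also 2 of 4. With the replicate block the calls were 1 member and 395 genes in ovary, 7 and 1274 in kidney and 1 and 52 for the difference. The ovary member was Cyp1b1 (adjusted p = 0.0278, edgeR) and the one added in kidney Cyp2a5 (0.0394).

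For 52 results on named genes, 770 of 904 alternative values kept direction and side of the threshold, 69 lost the call, 45 gained it and 20 turned sign, none of these called. The sign of Cyp2e1 in ovary turned with limma-voom (0.28). Over the fits without 1 library, log2 fold changes that crossed 0 ran in ovary from −0.73 to 0.62 for Cyp2e1, −0.060 to 0.10 for Cyp2r1 and −0.0061 to 0.29 for Cyp2t4. In kidney they ran from −0.066 to 0.15 for Cyp1a1, −0.041 to 0.14 for Cyp2c23, −0.078 to 0.019 for Cyp2d26 and −0.035 to 0.019 for Cyp2s1. Without the libraries of deviating file names Cyp2r1 in ovary was at −0.0078 and Cyp2c23 in kidney at −0.013.

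Scaling moved the median log2 fold change of all genes by less than 0.1 in each comparison. Depth limits genes of a few CPM, and the near copies among the members limit what their counts can tell.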

Other observations

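Summed over the 60 P450 members without Por, the level in kidney was 1977 ± 70.9 CPM in the vehicle group and 1770 ± 54.4 CPM in the PT-2385 group (SD, n = 4), with ranges of 1926 to 2082 and 1691 to 1815 CPM that did not overlap. In ovary the sums were 598 ± 83.4 and 473 ± 48.1 CPM, with ranges of 520.3 to 712 and 425 to 532 CPM that overlapped.

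The 5 Cyp2b genes were tested in neither organ, and Cyp2b23 was the most counted of them in kidney with 66 pairs over 8 libraries. In ovary Cyp2c29 had 57 pairs over 8 libraries and Cyp2j12, a gene of the Cyp2j cluster that was not tested in kidney, had 45.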
